A study of Mus musculus with 8 samples.

Results

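The 2 days of sampling were compared within mouse motor neuron cultures that carry a knockout of Litchi: 2 arrays of day 9 were set against 2 arrays of day 7, which is 4 of the 8 arrays in the series. The cultures were made from male embryonic stem cells of a line that the titles call Hb9GFP, a name used for cells in which green fluorescent protein is driven by the promoter of Hb9, the older name of the motor neuron gene Mnx1. All groups had retinoic acid and Sonic hedgehog (RA/Shh) between day 2 and day 5, were taken apart into single cells from whole embryoid bodies on day 5, and were then kept with GDNF. The only other groups are control cells on day 7 and day 9, again with 2 arrays each, which the series' design text calls WT. The labels give no sorting step, no number of knockout clones and no word on whether the replicates are separate cultures, so the spread behind every p-value is that between these arrays and may be technical. Litchi was found 0 times among gene names and synonyms and Mnx1 was not analysed here, so neither the knockout nor the reporter's gene was checked.

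Spinal motor neurons arise from ventral progenitors that express Olig2, under Sonic hedgehog from the floor plate and retinoic acid from the flanking tissue. As they leave the cell cycle they turn on the homeobox genes Mnx1, Isl1 and Lhx3, then the genes for acetylcholine synthesis and the neurofilaments of a growing axon. Cultures made this way also hold progenitors, floor plate cells, interneurons and, with time, glia.

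RNA levels were measured with 1-colour Agilent arrays. A level is the log2 processed signal minus the array's 75th percentile, so 1 unit is a factor of 2, and levels of different probes are not compared. That percentile was 1691 and 668 intensity units on day 7 and 1429 and 854 on day 9 (replicates 1 and 2), and between 57.4% and 65.8% of spots on these arrays were well above background. All 8 motor neuron markers of a fixed list were well above background on both days, the log2 of their summed level being 5.40 and 5.55 on day 7 and 3.60 and 3.91 on day 9. The trophoblast markers Tpbpa, Tpbpb, Ctsq and Ctsr, the macrophage marker Tyrobp, the astrocyte marker S100b and the interneuron marker En1 were below background on all 4 arrays. Other markers of these classes were not: 2 of 6 trophoblast markers, Prl2a1 and Prl3d1, were well above background on both days. So were 4 of 6 astrocyte markers and 2 of 4 macrophage markers. Of 8 interneuron markers on the array, 7 were above background on day 7 and 6 on day 9.

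Of 24078 genes tested, 2144 (8.90%) changed between the days at an adjusted p under 0.05 (limma, two-sided, Benjamini-Hochberg over all genes tested): 1061 (4.41%) were higher on day 9 and 1083 (4.50%) lower. Among these, 734 rises and 662 falls were of at least 1 log2 unit. The median change of all genes was -0.11, which a scaling on the array median moved to 0.038, and the share of calls that were higher moved with it from 49.5% to 66.5% (57.1% after quantile normalization). Each knockout array mattered to the count: 1280 genes were called without day 7 replicate 1, 550 without day 7 replicate 2, 599 without day 9 replicate 1 and 620 without day 9 replicate 2. All 2144 calls kept their sign in each of these 4 fits, which was fixed in advance, since the days did not overlap in any called gene. With no filter on dim probes 478 genes were called, with 4 falls left in motor neuron identity, 3 in the axon list, 8 rises in the floor plate list and 4 in the cilium list.

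More genes of motor neuron identity fell than rose. Of 24 measured members of that list, 10 were lower, 4 higher and 10 not called, with a median change of -1.02. Lhx3, a homeobox gene that specifies motor neurons with Isl1, stood at 3.98 and 4.06 on the day 7 arrays and at 2.29 and 2.56 on day 9, a change of -1.59 ± 0.16 SE (adjusted p = 0.00514, n = 2 arrays per day throughout). Both day 9 arrays lay below both day 7 arrays; the days did not overlap in any called gene, nor in 58.4% of all genes tested. Slc18a3, the vesicular transporter of acetylcholine, went from 3.65 and 4.02 to 1.78 and 2.10 (-1.89 ± 0.22, 0.00684). Chat, the enzyme that makes acetylcholine, went from -0.87 and -0.57 to -2.45 and -2.26 (-1.63 ± 0.23, 0.0109). These 3 genes span transcription and transmitter. The homeobox gene Isl2 fell from 2.60 and 2.50 to -0.052 and 0.15 (-2.50 ± 0.52, 0.0353). Isl1 had levels of 0.47 and 0.64 on day 7 and -1.15 and -0.68 on day 9, and its change of -1.47 ± 0.47 was not called (0.106). The choline transporter Slc5a7, with -1.52, was not called either (0.0652). Stk32a, a kinase gene on the list, fell by 1.91. The 4 members that rose were Chodl (1.77), a lectin-like gene of fast motor neurons that was above background on 1 day 7 array, Foxp1 (0.86), a factor of limb-innervating motor neurons, the guidance ligand gene Slit2 (0.77) and the semaphorin receptor gene Nrp1 (0.65). In bulk RNA, fewer motor neurons and less RNA per motor neuron cannot be told apart. Without one knockout array, between 4 and 7 members were called lower (7 without day 7 replicate 1, 4 without each of the others) and between 0 and 1 higher, and normexp background correction left 10 lower and 0 higher.

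**Figure D1:**
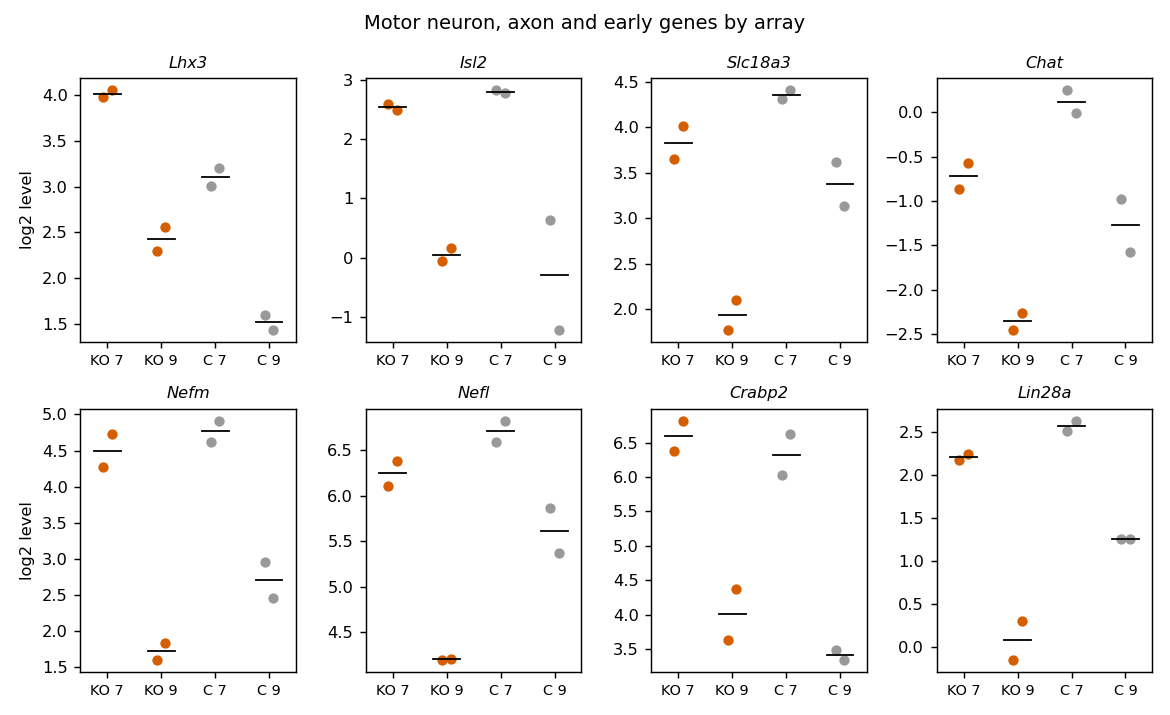
Log2 level relative to the array's 75th percentile (vertical axis) on each array of knockout cells (KO, orange) and control cells (C, grey) on day 7 and day 9, for 8 genes; a dot is an array and a bar the mean of the 2 arrays. In all 8 genes the knockout day 9 arrays sit below the knockout day 7 arrays, Lhx3 at 2.29 and 2.56 against 3.98 and 4.06.

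The axon's cytoskeleton moved the same way. Of 35 measured neurofilament and axon genes, 11 fell and 0 rose, with a median change of -0.48, and 30 of the 35 values were negative. Nefm, the medium neurofilament chain, went from 4.27 and 4.72 to 1.60 and 1.84 (-2.78 ± 0.24, adjusted p = 0.00433). Nefl, the light chain, went from 6.11 and 6.39 to 4.20 and 4.21 (-2.04 ± 0.20, 0.00519). Prph, an intermediate filament protein of peripheral and motor axons, went from 0.34 and 0.69 to -1.69 and -1.93 (-2.33 ± 0.25, 0.00592). Stmn2, a regulator of microtubules in growing axons, fell by 0.98. The further 7 falls were those of Ina (-1.21), Tubb3 (-0.91), Dcx (-0.89), Kif5a (-0.85), Gap43 (-0.81), Stmn4 (-0.68) and Dpysl3 (-0.64), picked here after their values were seen. With knockout day 7 replicate 1 left out 6 members fell, and with any one of the other 3 knockout arrays left out 3 fell.

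Among the synaptic lists, only the receptor genes were called in both directions. Of 34 measured synaptic vesicle genes, 1 rose, 0 fell and 33 were not called, with a median of -0.18; the riser was Syn2, a synapsin of the vesicle surface, from 0.64 and 0.34 to 1.87 and 1.73 (1.31 ± 0.17, adjusted p = 0.00787). Receptor genes for neurotransmitters numbered 10 higher and 3 lower of 42. The risers included the metabotropic glutamate receptor gene Grm7 (2.70 ± 0.29), which was above background on 1 of 2 day 7 arrays, and the NMDA receptor subunit gene Grin3a, at least 2.58-fold higher because it was above background on no day 7 array. Such a bound sets the day 9 mean against the day 7 mean, with each day 7 array raised, where its signal is lower, to the dimmest signal well above background there. Chrnb4 (-1.25 ± 0.15) and Chrna3 (-0.84 ± 0.13), subunits of ganglionic nicotinic receptors, fell, as did the glutamate receptor gene Grm4 (-1.15, with 1 day 9 array above background). In the scaffold and adhesion list 4 of 23 rose and 0 fell, namely the kinase gene Camk2a (1.06), the neuroligin genes Nlgn3 (1.45) and Nlgn1 (1.17) and the scaffold gene Shank3 (0.70). These rises depended on the processing, with 1 left under normexp and 0 with no filter on dim probes. The list median of 0.13 ran from 0.094 to 0.27 with one knockout array left out. With one knockout array left out, between 1 and 6 receptor genes were called higher (6 without day 7 replicate 1, 1 without day 7 replicate 2, 1 without day 9 replicate 1, 5 without day 9 replicate 2), and with normexp 3.

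In the spinal progenitor list 9 of 23 measured genes fell and 1 rose, with a median of -0.65. Lin28a, an RNA-binding repressor of let-7 miRNAs that is active in early embryonic cells, went from 2.18 and 2.25 to -0.15 and 0.30 (-2.14 ± 0.17, adjusted p = 0.00399), and its relative Lin28b from 2.91 on both arrays to 1.12 and 1.22 (-1.74 ± 0.17, 0.00514). Nkx2-9, a ventral homeobox gene next to the floor plate, fell by 2.56. Olig2 fell by 1.63 ± 0.37 (0.0441), with day 7 arrays at 1.48 and 1.64 and day 9 arrays at -0.64 and 0.52. The 1 riser was Sox2 (0.77), a factor of neural stem cells. The log2 of the summed level of the 6 neural progenitor markers went the other way from the list, from 6.28 and 6.46 to 6.69 and 6.87. Of these markers, Nes went from 5.34 and 5.32 to 5.87 and 6.15. Pax6, like Olig2, was lower, going from -1.60 and -1.54 to -3.52 and -2.61. Mki67, a marker of cycling cells, was at 4.80 and 4.92 on day 7 and at 4.89 and 4.95 on day 9 (0.056 ± 0.14, 0.826). Of 38 mitosis and replication genes, 1 fell (Uhrf1, which recruits DNA methyltransferase, -0.70) and 0 rose, which is 2.63% called against 8.90% of all genes tested. At an unadjusted p under 0.05, 9 had a negative and 1 a positive change, where 6399 of all 24078 genes were past it in either direction. Without one knockout array the progenitor falls numbered 4, 4, 3 and 6 (day 7 replicates 1 and 2, then day 9 replicates 1 and 2), and scaling on the median or normexp left 6 each.

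Of 22 retinoic acid genes, 6 fell and 3 rose. The binding proteins that carry retinoic acid in the cell led the falls: Crabp2 went from 6.37 and 6.82 to 3.64 and 4.38 (-2.59 ± 0.31, adjusted p = 0.0069) and Crabp1 from 3.49 and 4.01 to 2.03 and 2.24 (-1.62 ± 0.22, 0.00916). Aldh1a3, an enzyme that makes retinoic acid, rose from -2.33 and -2.19 to 0.99 and 1.20 (3.35 ± 0.28, 0.0041). Stra6, a receptor for vitamin A uptake, rose by 1.06, and Dhrs3, which reduces retinal, by 1.60. Both binding proteins were thus lower on day 9 and Aldh1a3 higher, while the related genes Aldh1a1 and Aldh1a2 of the list are not reported here. Scaling on the array median gave 3 falls and 5 rises, and leaving out day 7 replicate 2 or either day 9 array gave 1 or 2 falls and 1 rise.

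The floor plate, the ventral midline that secretes Sonic hedgehog, was the list with the highest share of rises: 10 of 14 measured genes rose and 1 fell, with a median of 1.72. Shh itself went from 1.47 and 1.39 to 3.62 and 3.51 (2.14 ± 0.13, adjusted p = 0.00324). Ferd3l, a bHLH factor of the floor plate, rose by 2.09 and Sulf1, an extracellular sulfatase, by 1.92. The forkhead factor genes Foxa2 (1.42) and Foxa1 (2.29), the netrin gene Ntn1 (1.32), Spon1 (2.56), Slit1 (0.88) and Cmtm8 (1.52) also rose. The gene that fell was Nkx2-9. Leaving out any one knockout array left 8 or 9 rises. The 4 endoderm markers, Foxa2 among them, were above background on both days. The log2 of their summed level went from 4.20 and 4.07 to 5.56 and 5.53, nearly all of it Foxa2, which alone stood at 4.15 and 4.02 and then 5.52 and 5.50. Of the other endoderm markers, Afp was at -4.83 and -4.09 on day 7 and at -4.31 and -4.88 on day 9. Sox17 went from -1.41 and -1.69 to -0.28 and -0.71, a change that was not called (adjusted p = 0.0604). Ttr was also higher on both day 9 arrays than on either day 7 array. The part of endoderm in the floor plate values was not tested. In the list of hedgehog pathway and target genes, 2 of 16 rose, the co-receptor genes Cdon (1.13) and Boc (0.79), and Mycn fell by 1.01.

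Motile cilium genes, which build the beating cilia of ependymal and floor plate cells, rose in 11 of 23 measured members and fell in 0, with a median of 1.93. Foxj1, the factor that switches this program on, went from -0.48 and 0.084 to 2.96 and 2.50 (2.93 ± 0.33, adjusted p = 0.00629). Cfap52, a protein of the axoneme, went from -2.86 and -3.19 to 1.14 and 0.34 (3.76 ± 0.37, 0.00514). Dnah11, a dynein heavy chain, rose by 3.77 and Ccdc39, which sets the spacing of dynein arms, by 2.05, the latter above background on 1 day 7 array. Axonemal genes outside the list stood among the largest rises: Dnali1, a dynein light chain above background on 1 day 7 array, by 4.23, Armc3 by 3.74, and Dnajb13, of the radial spoke, at least 6.36-fold. Without one knockout array the cilium count was 4, 5, 3 and 9 (day 7 replicates 1 and 2, then day 9 replicates 1 and 2), and with normexp it was 7, with a median of 0.97.

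Astrocyte and radial glia genes came next: 10 of 26 measured genes rose and 1 fell (Id3, an inhibitor of bHLH factors, -1.22), with a median of 0.98. Aldh1l1, a folate enzyme used to mark astrocytes, went from -0.59 and -0.39 to 3.71 and 2.88 (3.78 ± 0.44, adjusted p = 0.00659). Slc6a11, a GABA transporter, rose by 1.56 and Cd44, a hyaluronan receptor, by 1.33. Gfap, the filament protein of mature astrocytes, was on the array but not measured above background on both arrays of a day. Outside the list, the zinc transporter gene Slc39a12 went from -5.32 and -7.36 to -1.35 and -1.41 (4.96 ± 0.70, 0.0104), with 1 of 2 day 7 arrays above background. Without day 7 replicate 1, 6 of the 26 genes rose, and without any other one of the knockout arrays 3 rose.

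Matrix genes rose in 9 of 37 measured members and fell in 1 (Eln, elastin, -1.61), with a median of 0.77. Col6a1 went from -1.08 and -1.21 to 1.30 and 1.12 (2.36 ± 0.20, adjusted p = 0.00399), and Col6a2, another chain of the same collagen, from -4.04 and -4.05 to -1.46 and -1.60 (2.51 ± 0.25, 0.0052). Lama4, a laminin chain, rose by 1.92 and Postn, a matrix protein of mesenchyme, by 2.58. Col8a2, a collagen chain outside the list, rose by 3.81. Beside these, all 6 fibroblast and mural markers were above background on both days, and the log2 of their summed level went from 6.11 and 5.66 to 7.11 and 6.90. Among these markers Pdgfrb went the other way, from 0.37 and 0.21 to -0.16 and -0.35. The part of these cells in the rise of matrix genes was not tested. Among 29 fibroblast and mural genes 3 rose and 2 fell, Tagln and Myl9 of smooth muscle contraction by 1.04 and 0.91 among the rises and Meox1 by -2.06 among the falls. Without day 7 replicate 1, 10 matrix genes rose, and without any other one of the knockout arrays 4 did.

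**Figure D2:**
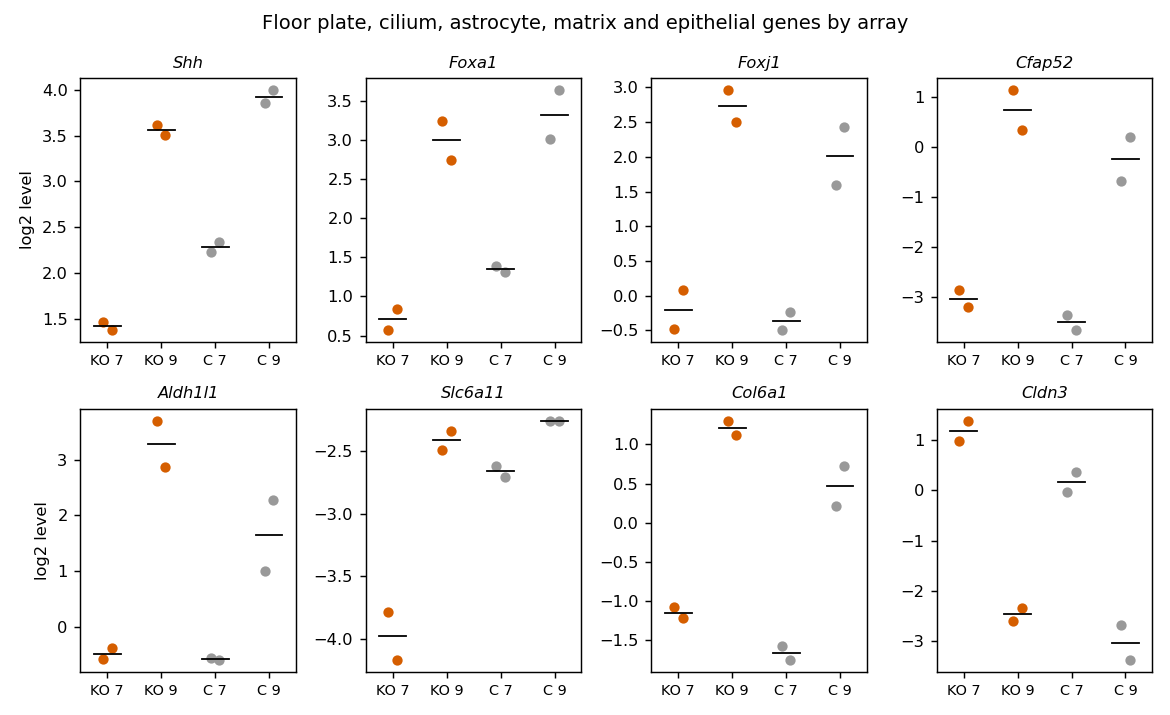
Log2 level relative to the array's 75th percentile on each array of knockout (KO, orange) and control (C, grey) cells on day 7 and day 9; a dot is an array and a bar the mean of the 2 arrays. The 7 genes of floor plate, cilium, glia and matrix are higher on day 9 in both genotypes, Shh at 3.62 and 3.51 in knockout cells, and the epithelial gene Cldn3 is lower at -2.59 and -2.33.

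Type I interferons are signalling proteins that cells secrete when they sense viral or misplaced nucleic acid, and they induce a set of antiviral genes through the receptor Ifnar1 and Ifnar2 and factors such as Stat2 and Irf9. In the knockout cultures 9 ligand genes fell while most of their targets had positive changes. All the falls in the list of interferon ligands, sensors and adaptors (29 measured genes, 1 rise, the RNA sensor gene Tlr3 at 2.48) were ligand genes. The promoters of 2 that fell and of 1 target that rose are shown because they share a motif. It is GAAANNGAAA (TTTCNNTTTC on the other strand), the core that interferon regulatory factors can bind, marked in capitals. They are RefSeq sequences of GRCm38.p6 from 250 bases before to 50 after the start, at chr4:88841566-88841865 (+) for Ifna4, chr4:88835275-88835574 (+) for Ifna5 and chr8:71537423-71537722 (-) for Bst2, each printed 5′ to 3′ in the direction of the gene.
Ifna4: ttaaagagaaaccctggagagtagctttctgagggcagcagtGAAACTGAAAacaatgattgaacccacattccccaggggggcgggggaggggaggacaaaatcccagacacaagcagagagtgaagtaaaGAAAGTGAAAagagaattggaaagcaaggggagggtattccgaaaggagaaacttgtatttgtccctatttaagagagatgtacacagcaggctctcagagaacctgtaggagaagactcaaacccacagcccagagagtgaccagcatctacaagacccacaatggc
Ifna5: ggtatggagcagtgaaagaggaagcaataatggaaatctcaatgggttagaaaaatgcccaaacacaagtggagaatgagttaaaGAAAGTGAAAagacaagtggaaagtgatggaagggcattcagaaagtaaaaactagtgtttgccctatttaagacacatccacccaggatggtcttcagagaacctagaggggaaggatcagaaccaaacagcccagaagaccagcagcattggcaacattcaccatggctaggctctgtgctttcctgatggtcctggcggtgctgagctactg
Bst2: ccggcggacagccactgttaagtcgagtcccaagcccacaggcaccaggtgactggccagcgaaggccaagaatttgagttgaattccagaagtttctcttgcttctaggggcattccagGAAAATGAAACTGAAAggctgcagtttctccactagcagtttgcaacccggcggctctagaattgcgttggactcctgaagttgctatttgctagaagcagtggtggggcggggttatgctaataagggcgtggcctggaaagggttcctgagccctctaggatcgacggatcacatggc
The motif was found in 1079 of 27025 genes with a promoter of this length (3.99%), in 6 of the 9 ligand genes that fell (7 of all 11 with a promoter), in 20 of 34 interferon-stimulated genes and in 4 of 18 genes of MHC class I presentation. A match is a description of letters, and no binding was measured.

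Ifna4, an early-induced interferon alpha, went from -2.87 and -2.80 on day 7 to -6.95 and -5.08 on day 9 (-3.18 ± 0.53, adjusted p = 0.0171), with 1 day 9 array above background. Ifna5 went from -2.36 and -2.04 to -4.13 and -3.70 (-1.71 ± 0.20, 0.00684), and Ifnab from -2.26 and -1.95 to -3.58 and -3.34 (-1.35 ± 0.16, 0.00689). Ifnb1, the single interferon beta gene, was at least 7.26-fold lower (0.0148), with both day 9 arrays below background. Ifna13 fell by 1.71, with 1 day 9 array above background, Ifna2 by 1.35, Ifna1 by 1.10 and Ifna14 by 1.09, and Ifna16 was at least 2.40-fold lower. Ifna12 (-0.23) and the lambda gene Ifnl3 (listed at a change of -0.00021) were not called. The alpha genes are near copies, and probes of one may bind another, so the 9 falls may not be separate observations. Ifna4, Ifna13, Ifna16 and Ifnb1 passed the filter only through the knockout day 7 arrays, where they were high, which favours a fall. With the filter on all 4 knockout arrays, 5 of 24 genes of the list were called lower and 1 higher. With one knockout array left out, 6, 3, 3 and 6 of the list were called lower (day 7 replicates 1 and 2, then day 9 replicates 1 and 2), and with normexp 2.

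The targets mostly had changes of the other sign, but few were called. Of 47 measured interferon-stimulated genes, 43 had a positive change, with a median of 1.33, but 2 rose and 1 fell at the threshold. That is 6.38% called, and 8.33% in the MHC class I list below, against 8.90% of all genes tested. A positive change at an unadjusted p under 0.05 was seen in 24, where 6399 of all 24078 genes were past it in either direction. Bst2, which tethers budding viruses, went from 4.16 and 3.91 to 6.25 and 5.84 (2.01 ± 0.40, adjusted p = 0.0302), and Xaf1, an apoptosis cofactor, from 2.35 and 1.93 to 4.63 and 4.18 (2.26 ± 0.52, 0.0467). Ccl5, a chemokine, went from 0.53 and -0.58 to -1.50 and -2.07 (-1.76 ± 0.39, 0.0417). Isg15, a ubiquitin-like protein, was at 6.14 and 6.15 on day 7 and 7.66 and 7.74 on day 9, and its change of 1.55 ± 0.45 was not called (0.0856). The control day 9 arrays, which enter the same estimate of spread, lay at 5.87 and 7.43 for Isg15. With the knockout arrays fitted alone 24 of the 47 were called higher and without either control day 9 array 20 were, while without either control day 7 array or any one of the knockout arrays 0 were. Beside this list, 2 of the 4 macrophage markers on the array were above background, with a summed log2 level between -0.83 and -0.60 on day 7 and between -0.77 and -0.57 on day 9. Antigen presentation by MHC class I, which interferon also induces, had 2 rises of 24, the peptidase gene Erap1 (1.62) and the transporter gene Tap1 (1.66), and a median of 1.99; the knockout arrays alone, and the fit without either control day 9 array, gave 16, and leaving out a knockout array gave 0.

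**Figure D3:**
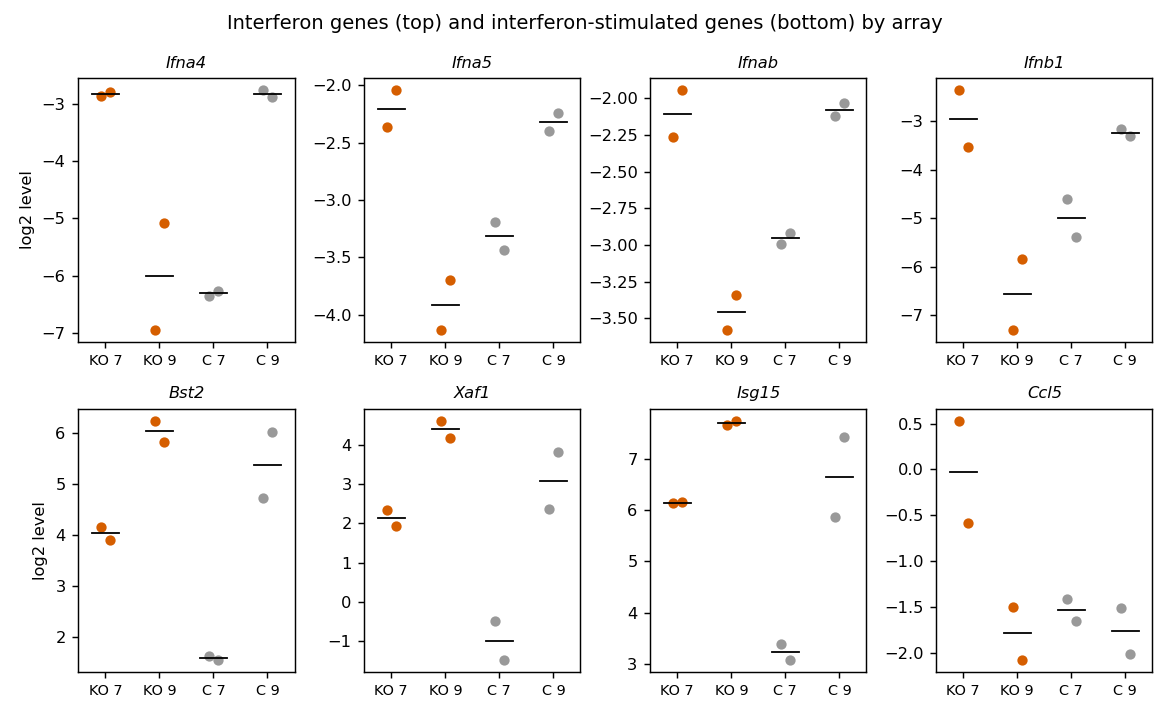
Log2 level relative to the array's 75th percentile on each array of knockout (KO, orange) and control (C, grey) cells on day 7 and day 9, for 4 ligand genes (top) and 4 stimulated genes (bottom); a dot is an array and a bar the mean of the 2 arrays. The ligand genes are lower on day 9 in knockout cells and higher on day 9 in control cells, and Bst2, Xaf1 and Isg15 are higher on day 9 in both.

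Across all genes the knockout change was set against the same 2 days in control cells, which share no array with it. Of the 2144 calls, 2067 (96.4%) had the same sign in control cells, against 74.4% of all genes tested. Lhx3 changed by -1.59 in both genotypes, Foxj1 by 2.37 in control cells and Nefm by -2.06. For the interferon ligand genes the signs differed: in control cells Ifna4 changed by 3.49, Ifna13 by 1.44, Ifna5 by 0.99, Ifnab by 0.88 and Ifna16 by 2.34, and these 5 were called higher there, where 4.29% of genes were. The difference between the 2 day changes was -2.71 for Ifna5 (adjusted p = 0.21), -2.23 for Ifnab (0.21), -6.67 for Ifna4 (0.239) and -3.15 for Ifna13 (0.242), so none of these passed, and Ifnb1 had -5.36 (0.346). In this list 9 genes had a negative difference at an unadjusted p under 0.05 and 0 a positive one, where 5.99% of all genes were past it in either direction. The filter favoured a negative difference for Ifna4, Ifna13, Ifna16 and Ifnb1, which passed it only through the knockout day 7 arrays. The stimulated genes had a median change of 2.98 in control cells; their median difference was -1.69, and 22 of 47 had a negative and 0 a positive difference at an unadjusted p under 0.05.

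In the test of that difference 1 gene of 24078 was called (0.00415%), and 1442 had an unadjusted p under 0.05. The gene called carries only the accession XM_143529; it stood at -3.67 and -3.69 on the knockout day 7 arrays and at or below -5.88 on the other 6, which were all below background. On day 9 it was at least 4.23-fold lower in knockout cells (adjusted p = 0.00324). The fitted difference of the changes, -3.01 (0.0408), sets those 2 arrays, through which alone the gene passed the filter, against 3 groups not above background, so it has no measured size. Others with small p did not pass: Tlr12, a Toll-like receptor, went from -5.98 and -5.92 to -3.52 and -3.47 in knockout cells with a difference of 3.05 (0.21), St8sia5, a sialyltransferase, had 1.48 (0.294), and Gpr17, a receptor of oligodendrocyte precursors, 2.43 (0.294). On knockout day 7 replicate 2, Tlr12 lay under the dimmest signal well above background there (-5.17), so its change rests in part on a value at the floor. The lymphocyte activation gene Cd69 had -1.82 (0.285) and Cyp2c65 -1.69 (0.285), both below background on the knockout day 9 arrays.

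**Figure D4:**
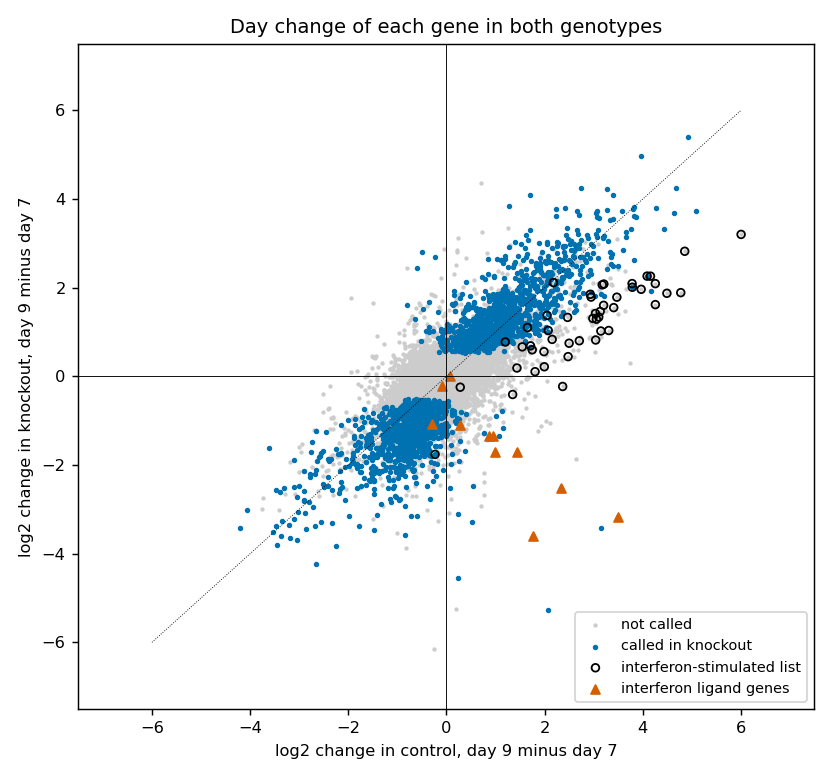
Log2 change from day 7 to day 9 of each of 24078 genes in control cells (horizontal axis) and knockout cells (vertical axis); blue points are called in knockout cells, open circles are the interferon-stimulated list, orange triangles are interferon ligand genes, and the dotted diagonal marks equal change. Most called points lie in the lower left and upper right (96.4% share their sign), while Ifna4 sits at 3.49 in control cells and -3.18 in knockout cells.

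Among genes with a symbol and at least 1 array above background on each day, the largest rises beyond those above were Lgi3, a secreted neuronal protein (3.83), Ccdc3 (3.74), the interferon-inducible Ifi27l2a (3.70), the BMP family ligand Gdf10 (3.65), ceruloplasmin Cp (3.62), Cavin2 of caveolae (3.60), the cholecystokinin receptor gene Cckar (3.59 ± 0.13, adjusted p = 0.00118) and the crystallin gene Cryba2 (3.57). From below background on day 7, Ecrg4, a secreted peptide of choroid plexus, rose at least 19.1-fold (0.00411), Vwa3a at least 8.09-fold, the galanin receptor gene Galr1 at least 6.83-fold and Try5, a trypsin, at least 5.52-fold. Cckar was the tightest of these, with -2.20 and -2.28 on day 7 against 1.41 and 1.29 on day 9. Ccdc3, Gdf10 and Cryba2 were above background on 1 day 7 array, so their changes rest in part on a value at the floor.

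Among genes with a symbol and at least 1 array above background on each day, the falls were led by Cldn3, a tight junction claudin, from 0.98 and 1.39 to -2.59 and -2.33 (-3.65 ± 0.28, adjusted p = 0.00399). Spp2, a secreted phosphoprotein, fell by 3.59, Hk3, a hexokinase, by 3.51, Adtrp by 3.34, the serum amyloid gene Saa2 by 3.15, Hormad1 of meiotic chromosomes by 3.15, the potassium channel regulator Abcc9 by 3.13 and Arhgap33os by 2.83. The lymphocyte surface gene Cd5 fell by 2.72, the axonal adhesion gene Cntn2 by 2.62 and Th, tyrosine hydroxylase of catecholamine neurons, by 2.55. To below background went Cga, the shared chain of glycoprotein hormones (at least 7.34-fold), the adhesion receptor gene Adgrd1 (at least 7.20-fold), Defb36 (at least 6.17-fold) and Bcl2l14 (at least 5.79-fold). Of these, Hk3, Adtrp, Hormad1, Abcc9 and Arhgap33os had 1 day 9 array below background.

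Other spinal and neural lists are set beside the 8.90% of all genes tested that were called, 4.41% higher and 4.50% lower. The Hox, channel, trophic receptor and protocadherin lists, with 12.5% to 14.8% called, lay not far above that share. In the interneuron list 6 of 24 rose and 4 fell, the neuropeptide gene Tac1 by 2.68 against Sst by -2.03, with Lhx5 (-1.12) and Lhx1 (-0.94) also lower. The Notch and proneural list gave 2 rises (Hey1 0.78, Notch2 1.09) and 3 falls of 27, among them the proneural gene Neurog2 (-2.12) and the Notch target Heyl (-0.99). Axon guidance genes gave 6 rises and 3 falls of 41, with the netrin receptor gene Unc5c at -1.56 and the semaphorin gene Sema3d at -1.79. The neural crest list gave 4 falls of 20 and 0 rises, among the falls Th, the autonomic factor gene Phox2a (-1.41) and Tfap2a (-1.30). Of 24 Hox genes 3 fell (Hoxa9 -1.80, Hoxd4 -0.91, Hoxd3 -0.82) and 0 rose. Long neuronal adhesion genes gave 6 rises and 1 fall of 25, led by Negr1 (1.93), splicing regulators 2 rises (Mbnl2 1.06, Qk 0.83) and 4 falls of 20, channels 2 rises and 1 fall of 22, trophic receptors 1 rise (the BDNF receptor gene Ntrk2, 1.15) and 2 falls of 21, clustered protocadherins 2 and 2 of 27, and the oligodendrocyte list 1 rise and 3 falls of 18.

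Lists of basic cell function lay below and above the 8.90% called over all genes. Ribosomal protein genes gave 0 calls of 41 (limma, 0 at an unadjusted p under 0.05, median -0.18) and oxidative phosphorylation genes 0 of 37 (1 at an unadjusted p under 0.05, median -0.016). Cholesterol synthesis genes gave 1 fall of 25, glycolysis and hypoxia genes 1 rise of 28 (Egln3, an oxygen-sensing hydroxylase, 1.41), p53 and apoptosis genes 2 falls of 29, unfolded protein genes 3 rises of 31 and immediate early genes 2 rises and 1 fall of 30. Imprinted genes gave 2 rises of 34 (Asb4 2.54, Dcn 1.93) and lysosome and complement genes 4 rises of 25, led by C1ra (2.67) and C1s1 (1.90), proteases of the complement cascade. For other tissues the counts were 1 rise and 4 falls of 20 muscle genes, 1 rise of 11 endothelial genes, 1 fall of 11 macrophage and blood genes, 1 fall of 19 epithelial genes, 2 falls of 18 trophoblast genes, and 2 rises and 2 falls of 29 pluripotency genes.

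**Figure D5:**
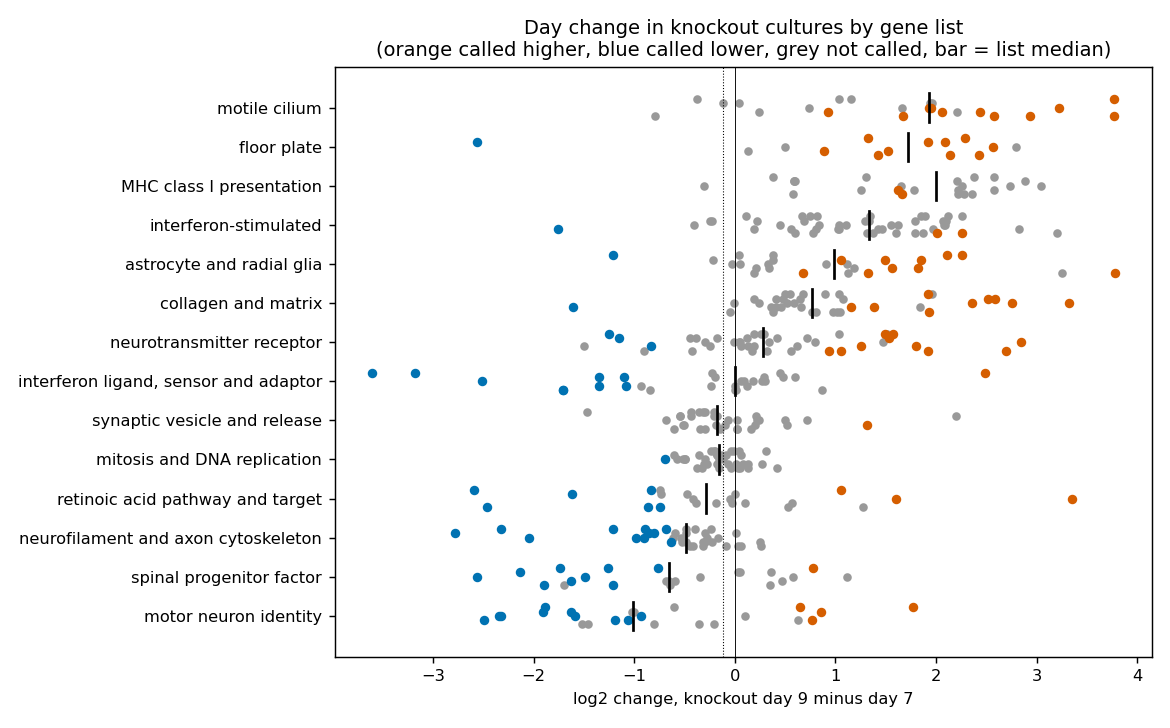
Log2 change from day 7 to day 9 in knockout cells (horizontal axis) of each measured gene in 14 lists; orange dots are called higher, blue dots called lower and grey dots not called, a bar is the list median, and the dotted line is the median of all genes, -0.11. MHC class I presentation (median 1.99), motile cilium (1.93), floor plate (1.72) and interferon-stimulated (1.33) genes lie to the right and motor neuron identity genes (-1.02) to the left.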

How the data were processed

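RNA of 8 samples was hybridised to 1-colour Agilent arrays. Per the file headers, the processed signal the authors deposited is an intensity per spot with its background subtracted, and flags mark spots well above background; the submitters' processing notes name Agilent Feature Extraction 10.5.1. The authors' deposited log2 table, quantile-normalized from its values (median 5.80 on every array), served as an alternative.

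The 3671 control spots and 104 to 166 outlier spots per array were left out; 0 spots were saturated. Of 55681 probes, 26300 (47.2%) got a symbol through RefSeq accessions (GRCm38.p6). Probes well above background on both arrays of either knockout day were kept, and the brightest probe on average stood for a gene; no named gene had probes called in opposite directions. limma 3.58.1 in R 4.3.3 fitted the 4 group means over all 8 arrays (lmFit, eBayes, 4 residual degrees of freedom), tested on simulated data. All arrays share 1 slide and scan.

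Members and the 43 gene lists were chosen with earlier results of these data known. Named genes are 5 fixed genes (Isl1, Lhx3, Chat, Olig2, Mki67), the 15 largest called changes each way (5 each way by bound), up to 4 members per list with the smallest adjusted p, and up to 8 genes each way for the difference of day changes; other names were picked after their values were seen. Some genes these rules pick are not reported here.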

Additional observations from a re-analysis of the deposited data

Results flagged for a closer look

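The gene known only by the accession XM_143529 had a fitted difference between the genotypes' day changes of -3.01 (limma interaction term, adjusted p = 0.0408). It was above background only on the 2 knockout day 7 arrays and passed the filter only through them, so the value is set against arrays not above background and does not by itself show a difference between the genotypes. Groups of 2 arrays are too small to look for single arrays that stand apart.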

How the results depend on the processing

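Without one knockout array, the number of genes called for day 9 against day 7 ran from 550 to 1280 (main 2144), and without one control array from 1764 to 2167. It was 940 with normexp on the median signal, chosen after seeing the data because the files hold no mean signal, 478 with no filter on dim probes, where 37277 genes were tested, and 1396 where a change of at least 1 log2 unit was also required. Quantile normalization (1979), the authors' table (1978), the median as scale (2212), other filters (2043 and 1931), the mean of probes (2171), the trend option (2623) and the knockout arrays alone (1981) stayed within 1.5 times. Replicate numbers did not pair the knockout days (correlation of replicate differences -0.044 across genes), while it was 0.507 between the genotypes on day 7, -0.264 between them on day 9, 0.285 between the control days, 0.323 between control day 9 and knockout day 7 and 0.047 between control day 7 and knockout day 9; a replicate block gave 2673 calls. The 1 call of the difference between genotypes became 0 with quantile normalization, the median, normexp, the authors' table, no filter, the filter on all 4 knockout arrays, the replicate block and the trend option, and ran from 0 to 1 without one array; the cause was not tested. All 2144 calls kept their sign in these settings, except 2 with no filter, 1 of 1797 measured under the filter on all 4 knockout arrays and 5 with the mean of probes. Where an array was left out, with the trend option or with the knockout arrays alone, the sign could not change, because the days did not overlap in any called gene. Of 172 named genes called, 45 passed in every setting run, among them Lhx3, Nefm, Shh and Foxj1, and 0 reversed. Genes below background on a day have only a bound there.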

Other observations

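Among probes named only by a position on mm9 or an accession, the transcript ENSMUST00000028883 rose by 3.74 in knockout cells (limma, adjusted p = 0.0287), from -3.90 and -4.07 to 0.70 and -1.19. A region on chromosome 9, 75316023 to 75344401 (mm9, its name ending in R), was at least 8.39-fold lower on day 9 (0.0365), and one on chromosome 7, 86680928 to 86700632, was at least 4.72-fold higher (0.0113).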
